A study of Bos indicus x Bos taurus with 78 samples.

Results

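The miR-181 family was followed through loin muscle (Longissimus lumborum) biopsies of 78 Bos indicus x Bos taurus steers that did or did not yield dark-cutting beef. Its 4 members, bta-miR-181a, bta-miR-181b, bta-miR-181c and bta-miR-181d (named below without the bovine prefix), were the rows of those names among the 1030 miRNA rows of the count table, and all 4 were present. The members were picked by name, and the rule uses no measured value. By the labels 53 males were normal and 25 were dark-cutters, the latter with a fraction for the degree: 1/4 (8 steers), 1/3 (9), 1/2 (3), 2/3 (4) and 3/4 (1). The sources used here give no age, treatment or time of biopsy, and each library came from 1 steer. The comparisons ask whether the family's level follows the phenotype or the degree.

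MicroRNAs are short RNAs that guide silencing proteins to messenger RNAs, mostly through a short stretch near their 5′ end called the seed. The members of the miR-181 family share that seed and are near-identical elsewhere. In mammals, miR-181a and miR-181b genes lie beside each other at more than one locus, and the genes of miR-181c and miR-181d form a further pair. In muscle the family is best known from myoblast differentiation, where miR-181 rises as myoblasts become fibres and represses the homeobox protein Hox-A11. The same miRNAs are also known from lymphocytes and from the endothelium of vessels. Dark-cutting beef stays dark and has a high pH after slaughter, a state tied to muscle glycogen that ran low beforehand.

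Libraries held between 1427817 and 4535675 counts, with a median of 3209320. The muscle miRNA miR-1 took 84.1% of them on average, 83.8% in dark-cutting and 84.2% in normal steers. All 6 listed muscle fibre miRNAs (miR-1, miR-133a, miR-133b, miR-206, miR-208b and miR-499) were detected, which fits the labelled tissue. Every listed marker of white blood cells, red blood cells, endothelium, smooth muscle and fibroblasts was detected as well, and none of these lists was at 0 in any group. The library of normal replicate 19 stood apart in red blood cell miRNAs, with a marker sum of 11.85 log2 CPM (counts scaled to a common library size) against a normal median of 9.37. Its miR-181 levels lay inside the range of the other normal steers, and the fits against normal steers, the member ratios and the correlations of members with each other and with marker sums were repeated without it.

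The members differed widely in abundance. In the median steer there were 162 counts of miR-181a for each count of miR-181d, with 1 added to each count. Over counts summed across steers the ratio was 179. Scaled by total count alone, miR-181a had 593 ± 200.4 CPM (SD, n = 78) and miR-181b 33.5 ± 10.9. MiR-181c stood at 12.9 ± 5.55 and miR-181d at 3.25 ± 1.57 CPM. Mature miRNAs are of nearly the same length, so these values need no correction for length, although capture of each sequence by the library kit was not measured. By total count miR-181a ranked 34th of all rows, miR-181b 124th, miR-181c 153rd and miR-181d 225th. Within the family, miR-181a made up 92.2% ± 1.06 (SD, n = 78) of the counts, miR-181b 5.29% ± 0.990, miR-181c 2.01% ± 0.654 and miR-181d 0.518% ± 0.222.

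The order miR-181a, miR-181b, miR-181c, miR-181d held in 77 of 78 steers. In the exception, dark-cutting 1/3 replicate 4, miR-181c had 8 counts and miR-181d 11. With 1 added to each count, the median steer had 17.2 counts of miR-181a for each count of miR-181b, 2.56 of miR-181b for each of miR-181c, and 3.48 of miR-181c for each of miR-181d. The closest steer for miR-181b and miR-181c had a ratio of 1.11, so neighbours in the order came close in single animals. The share of the leading member was alike in both phenotypes: miR-181a took 92.2% ± 0.998 (SD, n = 53) of the family in normal and 92.2% ± 1.20 (SD, n = 25) in dark-cutting steers.

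**Figure D1:**
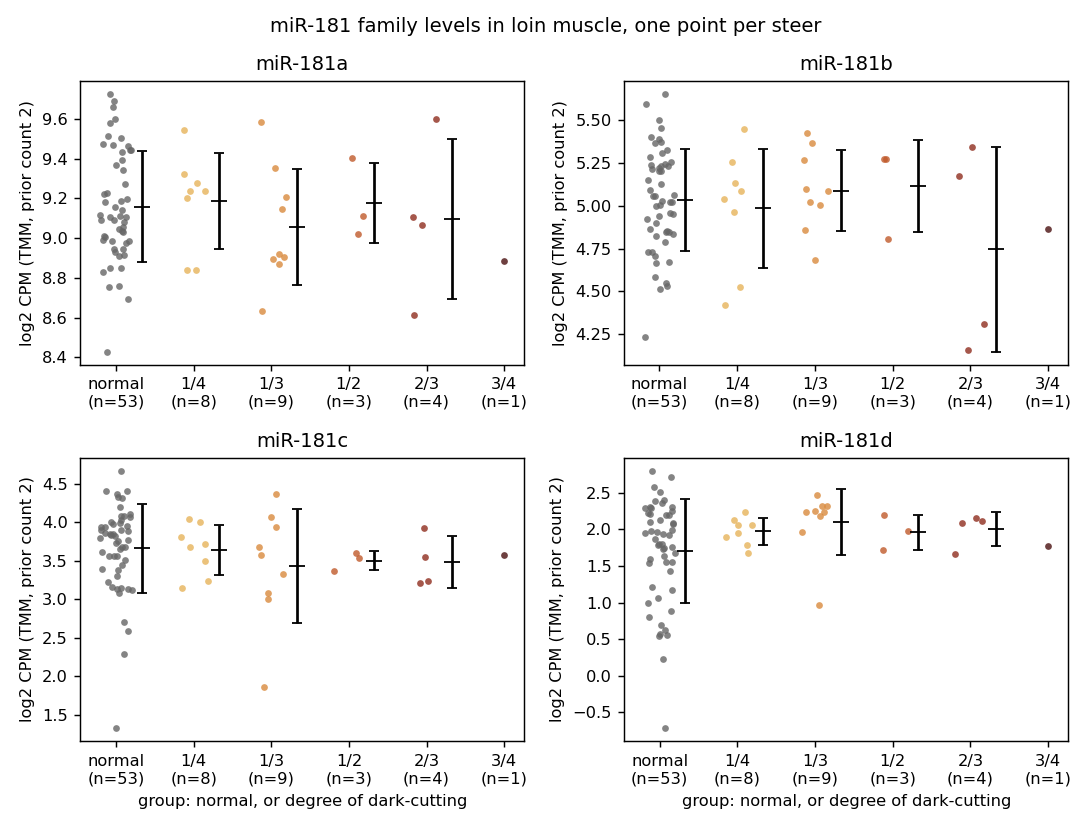
Level of each miR-181 member in every steer, in log2 CPM with TMM scaling, by group (normal, and degree of dark-cutting). Points are steers and bars are the mean with 1 SD; the dark-cutting steers overlap the normal range for every member, from about 9 log2 CPM for miR-181a down to about 2 for miR-181d.

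In log2 CPM, scaled with TMM (trimmed mean of M values, which sets libraries on the bulk of their miRNAs), miR-181a ran from 8.43 over a median of 9.11 to 9.73 in the 53 normal steers. In the 25 dark-cutting steers it ran from 8.61 over 9.11 to 9.60. The dark-cutting values lay inside the normal range, and both medians round to 9.11. MiR-181b ran from 4.23 over 5.03 to 5.65 in normal and from 4.16 over 5.08 to 5.45 in dark-cutting steers. A single dark-cutting steer, 2/3 replicate 4, fell below the normal range of miR-181b, and no dark-cutting steer lay outside the normal range of another member.

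The rarer members were more scattered. MiR-181c spanned 1.32 to 4.67 log2 CPM in normal steers, with a median of 3.79, and 1.86 to 4.37 in dark-cutting steers, with a median of 3.57. MiR-181d spanned -0.72 to 2.80 in normal steers, with a median of 1.87, and 0.96 to 2.46 in dark-cutting steers, with a median of 2.09. Its lowest normal value belongs to normal replicate 51, the shallowest library, where it had 0 counts. In that library a count of 0 allows up to 2.10 CPM, which covers counting error only.

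The SD over normal steers was 0.28 log2 units for miR-181a and 0.30 for miR-181b, against 0.58 for miR-181c and 0.71 for miR-181d. Over the 252 miRNAs tested the median SD was 0.43, and 17.9%, 23.02%, 74.6% and 90.1% of them had a smaller SD than miR-181a, b, c and d in that order. Among miRNAs of a level similar to miR-181a, 65.2% of 23 had a smaller SD, with a median of 0.27. For miR-181b, miR-181c and miR-181d the share was 13.2% of 38, 79.3% of 58 and 77.8% of 63. Part of the spread is counting: at the mean depth counting alone gives a coefficient of variation of 2.32% for miR-181a and 9.75% for miR-181b. For miR-181c it gives 15.5% and for miR-181d 31.9%. The coefficients observed were 19.6%, 20.8%, 34.4% and 48.1%, above the counting share for every member. With the counting share modelled, edgeR's biological coefficient of variation was 0.196 for miR-181a, 0.201 for miR-181b, 0.312 for miR-181c and 0.275 for miR-181d. The median of all tested miRNAs was 0.265. These came from the fit of dark-cutting against normal over all 78 steers, not from normal steers alone. In it edgeR draws each value toward those of miRNAs of a similar level.

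No member passed the adjusted threshold of 0.05 between dark-cutting and normal steers. The log2 fold change, dark-cutting over normal, was -0.05 ± 0.07 (SE) for miR-181a and -0.03 ± 0.08 for miR-181b. For miR-181c it was -0.17 ± 0.12 and for miR-181d 0.20 ± 0.15. The adjusted p of edgeR's quasi-likelihood F test, after Benjamini-Hochberg adjustment over 252 miRNAs, was 0.818, 0.915, 0.597 and 0.625 in that order. The normal median was exceeded by 13 of 25 dark-cutters for miR-181a, 14 for miR-181b, 7 for miR-181c and 19 for miR-181d.

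With TMM scaling, the intervals set how large a difference these 78 steers leave room for. For miR-181a the 95% interval of -0.18 to 0.09 spans at most 1.13-fold lower to 1.06-fold higher. That of miR-181b, -0.19 to 0.12, spans 1.14-fold lower to 1.09-fold higher. MiR-181c had -0.42 to 0.08, or up to 1.34-fold lower, and miR-181d -0.10 to 0.50, or up to 1.42-fold higher. MiR-181d averaged 10.6 counts a library and miR-181a 1906, and the interval was widest for miR-181d.

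Across all miRNAs, 0 of 252 passed the adjusted threshold of 0.05 (0.00%), and 23 (9.13%) had an unadjusted p under 0.05, none of them a member. DESeq2 and limma-voom also called 0, with 25 and 30 at an unadjusted p under 0.05. The signs for the main 2 members depend on the scaling. Scaling by total count alone, which is set mostly by miR-1, moved the median of all miRNAs by 0.11, and gave 0.046 for miR-181a and 0.070 for miR-181b. MiR-181c then stood at -0.079 and miR-181d at 0.28. Fewer cells of a type and less miRNA per cell cannot be told apart in these bulk biopsies.

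The authors' deposited table, whose contrast was identified by refitting dark-cutters against normal animals with DESeq2, lists log2 fold changes of -0.04 for miR-181a, -0.03 for miR-181b, -0.17 for miR-181c and 0.20 for miR-181d. Their adjusted p in the authors' deposited table are 0.992, 0.992, 0.822 and 0.832.

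The titles are bare numbers that fall into a range below 600 (18 normal, 8 dark-cutting) and a range from 600 (35 and 17). What the numbers and ranges stand for is not given. The log2 fold change of miR-181a was -0.05 below 600 and -0.02 from 600. For miR-181b it was -0.05 and 0.0022. MiR-181c had 0.053 and -0.26, and miR-181d 0.42 and 0.12. No member's fold change differed between the ranges by edgeR's interaction test (adjusted p from 0.941 to 0.977). Over all 252 miRNAs that test called 0, with 10 at an unadjusted p under 0.05.

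**Figure D2:**
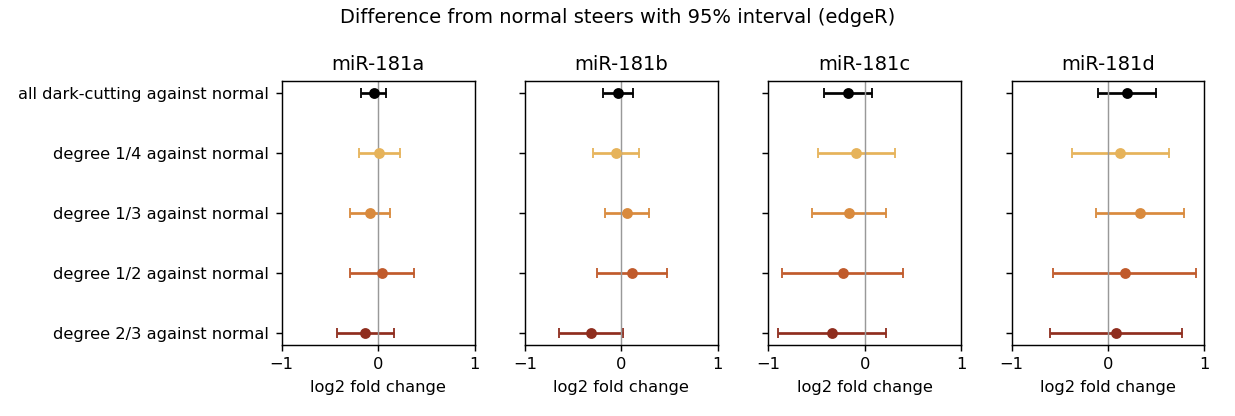
Log2 change of each miR-181 member with its 95% interval, for dark-cutting against normal steers and for each degree with at least 3 steers against normal. The intervals of all 4 members include 0 in each of these 5 comparisons, and they widen from miR-181a to miR-181d and in the degrees with 3 or 4 steers.

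By degree, each group with at least 3 steers was set against the same 53 normal steers in one fit, so the degrees share their controls. In the 8 steers of degree 1/4 the means were 9.19 ± 0.24 log2 CPM (SD) for miR-181a, 4.98 ± 0.35 for miR-181b, 3.64 ± 0.33 for miR-181c and 1.97 ± 0.19 for miR-181d. The log2 fold changes were 0.01 ± 0.11 (SE), -0.05 ± 0.12, -0.09 ± 0.20 and 0.13 ± 0.25, and edgeR's adjusted p was 0.9996 for each. Among 272 tested miRNAs 0 were called (0.00%) and 3 (1.10%) had an unadjusted p under 0.05, with no member among them.

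The 9 steers of degree 1/3 held both the lowest dark-cutting value of miR-181c and the lowest of miR-181d, in different animals. MiR-181c had a median of 3.57 log2 CPM there and fell to 1.86 in replicate 4. MiR-181d had a median of 2.24 and fell to 0.96 in replicate 7, with 5 counts. The other 8 steers lay between 1.96 and 2.46, all above the normal median of 1.87. The log2 fold change was 0.33 ± 0.23 (SE) for miR-181d, -0.16 ± 0.19 for miR-181c, 0.06 ± 0.11 for miR-181b and -0.08 ± 0.10 for miR-181a. The lowest adjusted p among the members, by edgeR, was 0.729. Here 0 of 272 miRNAs were called (0.00%) and 25 (9.19%) had an unadjusted p under 0.05, again without a member.

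In the 3 steers of degree 1/2 miR-181a stood at 9.40, 9.11 and 9.02 log2 CPM, and miR-181b at 5.27, 4.81 and 5.27. MiR-181c stood at 3.60, 3.36 and 3.53, all below the normal median, and miR-181d at 2.20, 1.72 and 1.97. All of these values lay inside the normal ranges. The log2 fold changes from miR-181a to miR-181d were 0.04 ± 0.17 (SE), 0.11 ± 0.18, -0.23 ± 0.31 and 0.17 ± 0.37, with edgeR's adjusted p at 0.994. Single steers moved the values of miR-181a, miR-181b and miR-181d by over 1.5 times. Without replicate 1 miR-181a was -0.066, miR-181b 0.046 and miR-181d 0.030. Without replicate 2 miR-181b was 0.22 and miR-181d 0.27, and without replicate 3 miR-181a was 0.12 and miR-181b 0.039. MiR-181c lay between -0.27 and -0.19 as each steer was left out. No miRNA was called of 272 (0.00%), and 13 (4.78%) had an unadjusted p under 0.05, none of the family.

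The 4 steers of degree 2/3 split in miR-181b. Replicates 1 and 3 had 5.34 and 5.18 log2 CPM, above the normal median of 5.03. Replicates 2 and 4 had 4.31 and 4.16, near and below the lowest normal value of 4.23. MiR-181a stood at 9.60, 9.11, 9.06 and 8.61 in the same animals, and was also lowest in replicate 4. The log2 fold change of miR-181b was -0.32 ± 0.17 (SE), with an unadjusted p of 0.0650 and an adjusted p of 0.988 by edgeR. It was the lowest unadjusted p of any member in any of the 7 comparisons. The value ranged from -0.46 to -0.15 as each steer was left out, the former without replicate 1 and the latter without replicate 4, with -0.18 without replicate 2.

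At degree 2/3 the other members had log2 fold changes of -0.13 ± 0.15 (SE, miR-181a), -0.34 ± 0.28 (miR-181c) and 0.08 ± 0.35 (miR-181d). Without replicate 1 these were -0.24, -0.44 and 0.29. Without replicate 2 miR-181d was 0.019. Without replicate 3 miR-181a was -0.022 and miR-181c -0.17, and without replicate 4 miR-181a was -0.0058 and miR-181d 0.035. MiR-181d had 10, 10, 11 and 11 counts, the most even of the family in that degree. Of 272 miRNAs 1 was called (0.368%), miR-1260b, and 7 (2.57%) had an unadjusted p under 0.05. Over all 272 miRNAs 90 lay above 0 and the median log2 fold change was -0.07. With DESeq2's size factors that median was -0.0091. The single steer of degree 3/4, which allows no test, had 8.89, 4.86, 3.57 and 1.78 log2 CPM from miR-181a to miR-181d. These lay -0.97, -0.57, -0.15 and 0.11 normal SDs from the normal means.

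Along the degree, with normal steers at 0 and the labelled fraction otherwise, slopes per whole unit of degree were -0.16 ± 0.15 log2 (SE) for miR-181a and -0.17 ± 0.17 for miR-181b. They were -0.44 ± 0.29 for miR-181c and 0.33 ± 0.36 for miR-181d. The lowest adjusted p was that of miR-181c, 0.479 by edgeR. In this fit 1 of 272 miRNAs was called (0.368%), again miR-1260b, and 30 (11.03%) had an unadjusted p under 0.05, with no member. By total count the slopes of miR-181a and miR-181b turned to 0.062 and 0.075. Within the 25 dark-cutting steers all 4 slopes lay below 0, at -0.34 ± 0.35, -0.55 ± 0.45, -0.52 ± 0.58 and -0.42 ± 0.59 from miR-181a to miR-181d (lowest unadjusted p 0.230, adjusted p 0.998 by edgeR). There 0 of 251 miRNAs passed (0.00%) and 9 (3.59%) had an unadjusted p under 0.05, no member among them. Most miRNAs sloped down in this fit: 98 of 251 lay above 0, and the median slope was -0.10. By total count that median was 0.076, and 0 members lay above 0.

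Ratios of members within a library do not depend on scaling or on miR-1. The log2 ratio of miR-181d to miR-181a, with 1 added to each count, was -7.22 ± 0.51 (SD, n = 25) in dark-cutting and -7.58 ± 0.72 (SD, n = 53) in normal steers. The difference was 0.37, and in 20 of 25 dark-cutters the ratio exceeded the normal median. The same ratio to miR-181b differed by 0.36 and to miR-181c by 0.47, where 19 and 17 steers exceeded it. Permutation tests over steers, two-sided, gave p = 0.0248, 0.0405 and 0.0148. After adjustment over the 6 pairs of members these were 0.0744, 0.0810 and 0.0744, so none passed 0.05.

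The ratios that leave out miR-181d differed less. MiR-181b over miR-181a differed by 0.0040 between phenotypes (permutation p = 0.954), miR-181c over miR-181a by -0.10 (p = 0.427) and miR-181c over miR-181b by -0.11 (p = 0.498). The miR-181d ratios rest on few counts. Without normal replicate 51, which had 0 counts of miR-181d, the differences to miR-181a, miR-181b and miR-181c were 0.32, 0.32 and 0.41 (permutation, adjusted p = 0.0983, 0.108 and 0.0983). Adding 5 in place of 1 gave differences of 0.18 to miR-181a, 0.18 to miR-181b and 0.29 to miR-181c. Within the range of title numbers below 600 the difference for miR-181d over miR-181a was 0.53, and within the range from 600 it was 0.28. For miR-181d over miR-181c these were 0.37 and 0.51.

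**Figure D3:**
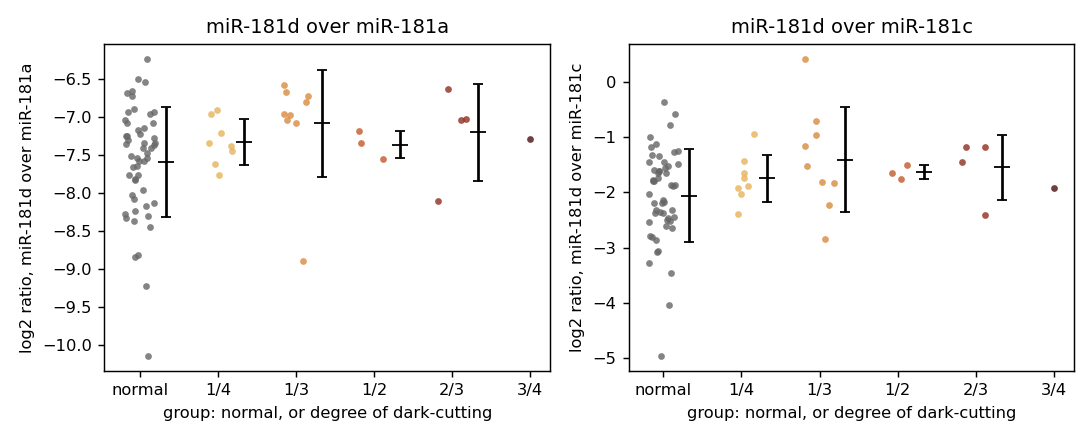
Log2 ratio of miR-181d to miR-181a (left) and to miR-181c (right) in every steer, with 1 added to each count, by group; points are steers and bars the mean with 1 SD. The lowest normal point of each panel (-10.14 and -4.95) is normal replicate 51, which had 0 counts of miR-181d, so its place is set by the added 1. The next normal steer had 2 counts and lay at -9.21 and -4.03, below the lowest dark-cutting steers (-8.89 and -2.84).

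From steer to steer, miR-181a and miR-181b moved together. Pearson's r of their log2 CPM was 0.55 and Spearman's rho 0.55 over 78 steers (permutation p = 1e-05, the smallest that 100000 resamples can give, adjusted 6e-05 over 6 pairs). It was 0.57 without the 2 steers farthest from the median of miR-181a. It was 0.55 in normal, 0.55 in dark-cutting, 0.55 below number 600 and 0.55 from 600. MiR-181a and miR-181c had r = 0.39 and rho = 0.39 (permutation p = 0.000310 and 0.000540, adjusted 0.000930 and 0.00162). Here r was 0.32 without the 2 farthest steers, 0.42 in normal and 0.29 in dark-cutting steers, and 0.36 and 0.41 in the ranges of title number.

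The remaining pairs showed no correlation past the threshold. MiR-181c with miR-181d, which also come from neighbouring genes, had r = 0.14 and rho = 0.079 (permutation p = 0.220 and 0.488, adjusted 0.424 and 0.586). MiR-181b with miR-181c had r = 0.014, and with miR-181d r = -0.0025. MiR-181a with miR-181d had r = 0.12, made of 0.25 in normal and -0.33 in dark-cutting steers, a difference that was not tested. Members share library, depth and scaling, and near-identical sequences can share reads, and their part in r was not tested. Scaled by total count alone, r rose to 0.81 for miR-181a with miR-181b and to 0.64 with miR-181c. The other 4 pairs then lay between 0.31 and 0.42. By total count miRNAs in general rose together. The median Spearman's rho over 226 compared miRNAs was then 0.39 for miR-181a, 0.39 for miR-181b, 0.34 for miR-181c and 0.27 for miR-181d. With TMM scaling these medians lay between -0.03 and 0.0057.

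**Figure D4:**
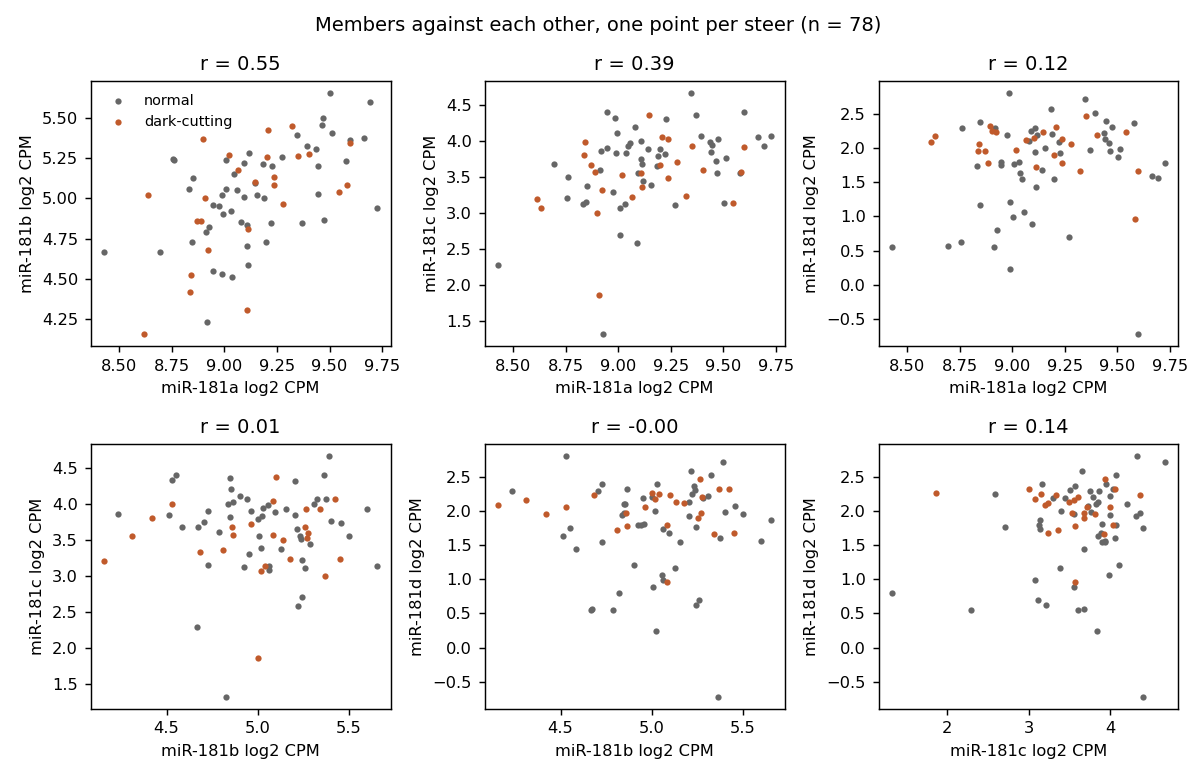
Each pair of miR-181 members against each other in log2 CPM, with a point per steer (grey normal, orange dark-cutting, n = 78) and Pearson's r above each panel. MiR-181a and miR-181b rise together (r = 0.55), miR-181a and miR-181c less so (0.39), and a tail of low miR-181d values in normal steers stands off from the rest.

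Over steers, the members were also set against summed markers of other cell types, in 24 pairs of member and list. Each sum is weighted to its most abundant marker. With TMM scaling the mean CPM was 860123 for miR-1 against 18754.5 for miR-133a, the next muscle fibre marker. For miR-143 it was 25111.8 against 227 for miR-145, and for miR-486 558 against 166 for miR-451. MiR-181c rose with the endothelial miRNAs miR-126-3p and miR-126-5p, with r = 0.42 and rho = 0.48 (permutation, adjusted p = 0.0024 and 0.00024 over 24 pairs). The r was 0.42 without the 2 farthest steers, 0.39 in normal and 0.47 in dark-cutting steers, and 0.57 and 0.36 in the ranges of title number. With TMM scaling miR-181b ran against the same markers, at r = -0.34 and rho = -0.33 (permutation, adjusted p = 0.0156 and 0.0132). Its r was -0.33 without the 2 farthest steers, -0.37 in normal and -0.34 in dark-cutting steers, and -0.44 and -0.29 in the ranges of title number. That sign hangs on the scaling: by total count alone r of miR-181b with endothelial markers was 0.37, while for miR-181c it was 0.67.

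With white blood cell miRNAs miR-181c had r = 0.34 and rho = 0.37 (permutation, adjusted p = 0.0156 and 0.00936). With miR-143 and miR-145 of smooth muscle and pericytes it had r = 0.29 and rho = 0.34 (permutation, adjusted p = 0.0473 and 0.0132). The 2 values of r were 0.32 and 0.34 without the 2 farthest steers, 0.28 and 0.33 in normal and 0.45 and 0.12 in dark-cutting steers. They were 0.34 and 0.26 below number 600, and 0.36 and 0.31 from 600. MiR-181a had r = -0.33 and rho = -0.34 with the muscle fibre sum, which was mostly miR-1 (permutation, adjusted p = 0.0156 and 0.0132). By total count r was -0.78, where miR-1 takes up most of the total. With TMM scaling r was -0.27 without the 2 farthest steers, -0.42 in normal and -0.20 in dark-cutting steers. It was -0.19 and -0.40 in the ranges of title number. MiR-181c with red blood cell miRNAs passed by rank alone (rho = -0.34, permutation, adjusted p = 0.0132, and r = -0.17, adjusted p = 0.246). That r was -0.067 in normal and -0.596 in dark-cutting steers, and -0.34 and -0.13 in the ranges of title number. It was -0.25 without the 2 farthest steers and -0.27 without normal replicate 19, and it turned to 0.17 by total count. No list passed for miR-181d. The part of these cell types in the members' levels was not tested.

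**Figure D5:**
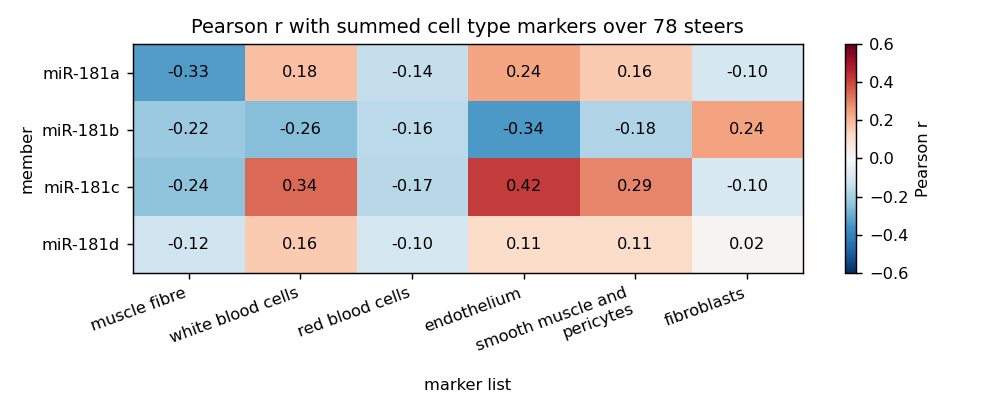
Pearson's r of each miR-181 member (log2 CPM) with the summed log2 CPM of each list of cell type markers over 78 steers. MiR-181c and miR-181b sit on opposite sides for endothelial markers (0.42 and -0.34) with TMM scaling, while by total count miR-181b turns to 0.37.

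Among 226 other miRNAs compared by Spearman's rho over 78 steers, given here as a description, miR-181b was the most alike to miR-181a (0.55), followed by miR-26b at 0.51, miR-181c at 0.39, miR-16b at 0.38 and miR-338 at 0.37. MiR-26b is known from myoblast differentiation. MiR-181b was followed most closely by miR-181a, then by miR-199a-5p at 0.48 and miR-214 at 0.45, which are made from 1 transcript in fibroblasts and other mesenchymal cells. MiR-93 at 0.42 and miR-660 at 0.42 came next. MiR-199a-5p and miR-214 are on the fibroblast list, whose sum did not pass for miR-181b. It had r = 0.24 and rho = 0.27 (permutation, adjusted p = 0.101 and 0.0615 over 24 pairs). The median rho over the compared miRNAs was -0.03 for miR-181a and 0.0057 for miR-181b.

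The nearest neighbours of miR-181c shared miR-338 with those of miR-181a. The slow-fibre miRNA miR-208b, which lies in a myosin heavy chain gene, stood first at 0.53, then miR-32 at 0.53, miR-16a at 0.50, miR-338 at 0.498 and miR-374a at 0.48. MiR-208b is on the muscle fibre list, whose sum, mostly miR-1, ran the other way with miR-181c. That sum had r = -0.24 and rho = -0.23 (permutation, adjusted p = 0.101 and 0.137 over 24 pairs). MiR-181a ranked 15th and miR-181b 106th of 226 for miR-181c. For miR-181d the nearest were miR-155, a miRNA of activated immune cells, at 0.30, and miR-27a-3p at 0.28, with miR-2887, miR-1434-5p and miR-2332 between 0.24 and 0.25. With scaling by total count, 3 of the nearest 5 were shared for miR-181a, 2 for miR-181b, 0 for miR-181c and 2 for miR-181d, and miR-26b stood first for both miR-181a and miR-181c.

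Other miRNAs of myoblast differentiation were taken from a list of 30 without the miR-181 family, of which 28 were tested. In dark-cutting against normal steers 0 were called by edgeR in either direction, 10 had a log2 fold change above 0 and 18 below, and the median was -0.03. Over all 252 tested miRNAs 116 lay above 0 and the median was -0.0091. At an unadjusted p under 0.05 there were 1 higher and 2 lower of the list, beside 23 (9.13%) of all miRNAs, 7 of them higher. By total count 21 of the 28 lay above 0, so the split of the list turns with the scaling.

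The most abundant of that list were miR-1 at -0.13 ± 0.08 (SE), miR-133a at -0.02 ± 0.09, miR-26a at -0.02 ± 0.05 and miR-499 at -0.11 ± 0.09. Those with the lowest unadjusted p were miR-148a at -0.23 ± 0.07, miR-206, a miRNA of regenerating and slow fibres, at 0.16 ± 0.06, and miR-186 at -0.09 ± 0.04. MiR-208b at -0.33 ± 0.17, miR-29b at -0.19 ± 0.11 and miR-23a at 0.13 ± 0.07 came next. Their adjusted p by edgeR was 0.182 for miR-148a, 0.277 for miR-206 and 0.416 for the other 4. Along the degree over all steers 0 of the 28 were called, with 1 higher and 4 lower at an unadjusted p under 0.05, where all 272 tested miRNAs gave 30 (11.03%), 7 of them higher.

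The cell type lists stood as follows in the same comparison. All 7 white blood cell miRNAs lay below 0 (median -0.15, miR-146a at -0.42 ± 0.16), as did all 4 fibroblast miRNAs (median -0.13, miR-21-5p at -0.06 ± 0.05). The 3 red blood cell miRNAs had a median of -0.52, with miR-486 at 0.08 ± 0.09, miR-451 at -0.52 ± 0.25 and miR-144 at -0.86 ± 0.27. MiR-486 is also on the list of myoblast differentiation. The 2 endothelial ones had -0.08, with miR-126-3p at -0.10 ± 0.07. The 2 of smooth muscle and pericytes had -0.08, with miR-143 at -0.23 ± 0.12 and miR-145 at 0.07 ± 0.10. The 6 muscle fibre miRNAs had a median of -0.07. None of these was called by edgeR, and 2 white blood cell, 2 red blood cell and 1 muscle fibre miRNA had an unadjusted p under 0.05. Over all 252 tested miRNAs these were 23 (9.13%), with 116 above 0. By total count 6 of 7 white blood cell and 3 of 4 fibroblast miRNAs lay below 0, and the medians of the endothelial, smooth muscle and muscle fibre lists turned to 0.024, 0.017 and 0.042.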

How the data were processed

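Small RNA libraries of 78 muscle biopsies were made with a NEXTflex kit, per the labels' protocols. FastQC, Trimmomatic 0.32 and DESeq2 1.34.0 are named in the submitters' processing notes. The sources used here give no aligner, counter, miRNA reference or genome build, and no sequences or positions are printed. The deposited matrix holds raw counts per mature miRNA and steer, per the file headers and values. The authors' deposited table gives, per miRNA, a mean normalized signal, a log2 fold change with its standard error, a Wald score, and a p-value with its adjusted p-value. Refitting dark-cutters against normal animals with DESeq2 gave the same Wald scores within 7.55e-08 on the 542 rows with at least 10 counts in all.

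Groups came from the phenotype label. All 78 columns matched a title, and replicate numbers pair no steers. Of 1030 rows, 21 repeated the counts of another row, none a member. The most alike pair of the 3003 library pairs had a chi-square per degree of freedom of 11.1, so no library was a copy. Counts were tested with edgeR 4.0.16 (R 4.3.3): quasi-likelihood F test, robust, TMM scaling, threshold 0.05. Filters were filterByExpr with a minimum of 10 counts (252 miRNAs), and for degrees and slopes a level equal to 10 counts in 8 or more libraries and 15 in all (272, or 251 within dark-cutting steers). Log2 CPM used a prior count of 2. Ratios and correlations used two-sided permutation tests with 100000 resamples.

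Alternatives were other scalings, no filter, DESeq2 1.42.0, limma-voom (limma 3.58.1) and the range of title number as a covariate. Further alternatives were left-out steers, other pseudocounts, TMM without the members and a prior count of 0.5. Fits within ranges of title number, correlations within subsets, ratios without normal replicate 51, and all alternatives of the marker correlations were chosen after seeing the data. The tests were tested on simulated data. The members and lists were chosen with earlier results of these data known. Named miRNAs were the members, the 5 most alike to each (with at least 10 counts a library on average), the 4 most abundant and the 6 of lowest p of the myoblast list, and the most abundant of each other list. MiR-203 of that list was not matched to a row. MiR-1260b was named after its values were seen, as the only call. MiR-144, miR-451 and miR-145 were also named after their values were seen, to complete their lists.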

Additional observations from a re-analysis of the deposited data

Results flagged for a closer look

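Of the 12 sets of 4 to 9 steers tested for a value that stands apart (4 members in 3 degrees), 2 were flagged, both for miR-181d. Chance flags about 1 in 20 such sets. In degree 1/3, replicate 7 had miR-181d at 0.96 log2 CPM, with 5 counts, where the next lowest of the 9 steers had 1.96. The same steer had the highest miR-181a of its degree, at 9.58. In degree 2/3, replicate 1 had miR-181d at 1.66 log2 CPM, with 10 counts, where the next of the 4 steers had 2.09. Replicates 1 to 4 had 10, 10, 11 and 11 counts. Scaled by total count alone they had 2.91, 3.32, 3.68 and 3.47 CPM. The part of the scaling in this flag was not tested. Replicate 1 had the highest miR-181a of its degree, at 9.60.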

How the results depend on the processing

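No member passed the adjusted threshold under any alternative run, and the lowest adjusted p was 0.388 (miR-181d, dark-cutting against normal, limma-voom, 0.32). Of the member changes under alternatives, 247 kept their sign and 9 did not. By total count these were 0.046 (miR-181a) and 0.070 (miR-181b) for dark-cutting against normal, 0.013 (miR-181b, degree 1/4), 0.047 (miR-181a, degree 1/3), and slopes of 0.062 (miR-181a) and 0.075 (miR-181b). Within ranges of title number they were 0.053 (miR-181c, below 600) and 0.0022 (miR-181b, from 600). For miR-181a in degree 1/2, leaving out each steer gave -0.066 to 0.12, the lowest without replicate 1. The number of miRNAs called went from 0 to 2 with no filter for dark-cutting against normal. For degree 2/3 it was 0 to 1 as each steer was left out, 0 without replicate 1 and without replicate 4. For the slope over all steers it went from 1 to 3 with DESeq2's size factors, total count, no filter or DESeq2's test, and to 0 with limma-voom. The cause was not tested.

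Of the ratio differences, miR-181b over miR-181a turned to -0.0011 with 5 added to each count, -0.0024 below number 600, and was -0.0038 without normal replicate 19 and 0.0021 without normal replicate 51. Below number 600, miR-181c over miR-181a turned to 0.16 and over miR-181b to 0.16. Among correlations, miR-181a with miR-181d was -0.33 and miR-181c with miR-181d -0.13 in dark-cutting steers alone. MiR-181b with miR-181c was -0.010 in normal steers and -0.34 below number 600. MiR-181b with miR-181d was 0.31 by total count, 0.045 without the 2 farthest steers, 0.021 in normal steers and 0.049 from number 600. By total count miR-181b with endothelial markers was 0.37 and miR-181c with red blood cell markers 0.17. Of the correlations between members and of the 6 marker pairs past the threshold by r or rho, the other 80 values kept their sign. Of the 18 other marker pairs, 7 changed sign by total count, and these were not taken through the other alternatives. Depth limits miR-181d and miR-181c, with means of 10.6 and 41.6 counts a library, and 3 or 4 steers limit degrees 1/2 and 2/3. No paired analysis was possible because the labels pair no steers across groups.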

Other observations

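Low miR-181d values were mostly those of normal steers. At most 5 counts of miR-181d were seen in 14 of 53 normal steers (26.4%) and in 1 of 25 dark-cutting steers (4%). Below 1 log2 CPM there were 10 normal steers and 1 dark-cutting steer. The SD of miR-181d over steers was 0.71 log2 units in normal animals, including normal replicate 51 with 0 counts, and 0.31 in dark-cutting animals. For miR-181a these were 0.28 and 0.27, for miR-181b 0.30 and 0.35, and for miR-181c 0.58 and 0.49. Counts of miR-181d averaged 9.83 ± 5.77 (SD) in normal and 12.36 ± 3.49 in dark-cutting steers, and the part of counting error in each was not tested. The boundaries were set after the values were seen, and no test of the spread was run.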
